A study of Mus musculus with 8 samples.

Results

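The 10 genes described here, Itpripl2, Cpd, Tns3, Slc20a1, Ptbp3, Inafm2, Cant1, Pnp, Gab2 and Nop9, had lower mRNA levels in GSTM1 KD than in control KD mouse astrocytes, unstimulated as well as stimulated with TNF-α. They are 10 of the 54146 genes in the deposited files, and all 10 were found by symbol in all 8 libraries. The genes were picked on the difference between GSTM1 KD and control KD in these same libraries, so that difference is given below as a description, with no test. The cells were primary astrocytes from the cortices of newborn C57BL/6 pups (postnatal days 2 to 5), grown from mixed glia, infected with a lentivirus that carried shRNA against Gstm1 (GSTM1 KD) or non-silencing shRNA (control KD), selected with puromycin and depleted of CD11b-positive microglia. Each knockdown was harvested unstimulated (basal) or 6 h into stimulation with 50 ng/ml TNF-α, which gives 4 groups of 2 biological replicates, and infection, selection and depletion were common to all 4. The number of hairpins against Gstm1 is not given in the sources used here, and with 2 replicates per group the p-values below measure only the spread between those libraries.

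The 10 genes do not form 1 pathway. Carboxypeptidase D, the phosphate importer encoded by Slc20a1, Inafm2 and Itpripl2 are membrane proteins, tensin 3 and Gab2 are adaptors at adhesions and receptors, Ptbp3 and Nop9 bind RNA, and Cant1 and Pnp act on nucleotides and nucleosides. An shRNA is cut into a short guide RNA that directs the cell to a complementary transcript, and partial complementarity to other transcripts, often through the guide's seed, can lower these as well. Gstm1 encodes a glutathione S-transferase of the mu class, an enzyme that joins glutathione to reactive compounds.

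The sequence of the hairpin is not in the sources used here, so no match to the hairpin itself was searched. What could be compared was each gene's transcript with that of Gstm1, because a guide against Gstm1 matches the Gstm1 mRNA. In GENCODE M21 (GRCm38), the coding transcript with the longest 3′ UTR was taken for each gene. The longest exact stretch shared with the Gstm1 transcript of 1289 bases was 11 to 14 bases long in the 10 genes. The median was 11 bases over the 12213 genes other than Gstm1 with such a transcript and enough counts, the 10 among them. Nop9 shared the longest run, 14 bases, a length that 4.08% of those genes reached. That run lies in the 3′ UTR of Nop9, and 1.59% of genes had a 3′ UTR that shared as long a stretch with Gstm1. Tns3 shared 13 bases, which 13.7% reached. In the 3′ UTR alone, Itpripl2 shared 12 bases with the last part of the Gstm1 3′ UTR, a length that the 3′ UTRs of 16.9% of genes reached. The windows below, from the strand of each mRNA, show these runs in capitals, 1 line for the gene and 1 for Gstm1.
Nop9 3′ UTR, chr14:55754189-55754218, plus strand: gatcaggaTGCAGGGGACAAGGctgtggtt
Gstm1 coding sequence, chr3:108014855-108014965, minus strand, across an intron: ccatggttTGCAGGGGACAAGGtcacctat
Tns3 coding sequence, chr11:8435716-8435848, minus strand, across an intron: gaagtggaTCAAAGATGGCCCttcttctaa
Gstm1 coding sequence, chr3:108012697-108012726, minus strand: ctatatttTCAAAGATGGCCCactggagta
Itpripl2 3′ UTR, chr7:118486622-118486651, minus strand: gtaatttaaAAAGTCTGAAACcaccaagtg
Gstm1 3′ UTR, chr3:108012255-108012284, minus strand: cgtctacaatAAAGTCTGAAACacacttgc
No gene of the 10 shared a stretch with Gstm1 as long as a whole shRNA guide. The 10 transcripts were long, with a median of 5175 bases against 3179 over the 12213 genes, and their 3′ UTRs had a median of 2539.5 bases against 1246. The matches are a description, and nothing about the hairpin is read from them.

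The genes lie on 5 chromosomes, and their starts are shown because a group of genes that is lower together can be looked at upstream. RefSeq promoter windows (GRCm38.p6) were matched for 7 of the 10 genes, not for Ptbp3, Cant1 and Gab2. The 250 bases before the start used for these windows are printed 5′ to 3′ for 4 of them, with matches to 5 motifs in capitals.
Itpripl2: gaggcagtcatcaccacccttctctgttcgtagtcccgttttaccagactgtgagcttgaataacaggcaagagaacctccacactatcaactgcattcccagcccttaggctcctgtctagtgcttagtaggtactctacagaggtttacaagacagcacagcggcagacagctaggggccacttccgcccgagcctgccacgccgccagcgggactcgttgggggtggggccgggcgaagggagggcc
Cpd: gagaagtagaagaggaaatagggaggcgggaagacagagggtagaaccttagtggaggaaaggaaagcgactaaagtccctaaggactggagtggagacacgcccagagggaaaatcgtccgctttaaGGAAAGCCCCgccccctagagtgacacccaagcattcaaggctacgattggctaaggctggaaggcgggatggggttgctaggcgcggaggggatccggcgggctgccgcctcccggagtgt
Inafm2: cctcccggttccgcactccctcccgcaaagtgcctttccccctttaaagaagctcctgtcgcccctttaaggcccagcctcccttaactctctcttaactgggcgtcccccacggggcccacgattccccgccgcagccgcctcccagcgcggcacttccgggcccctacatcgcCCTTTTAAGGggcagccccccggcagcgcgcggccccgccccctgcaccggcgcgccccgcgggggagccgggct
Slc20a1: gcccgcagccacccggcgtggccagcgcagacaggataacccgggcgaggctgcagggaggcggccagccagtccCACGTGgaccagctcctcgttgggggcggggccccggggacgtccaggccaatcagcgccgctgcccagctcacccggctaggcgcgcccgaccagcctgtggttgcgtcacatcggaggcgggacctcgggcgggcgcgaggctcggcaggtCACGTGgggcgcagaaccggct
These are chr7:118491976-118492225 on the minus strand (Itpripl2), chr11:76847009-76847258 on the minus strand (Cpd), chr2:118745508-118745757 on the plus strand (Inafm2) and chr2:129198523-129198772 on the plus strand (Slc20a1). Both strands were searched for CACGTG (the E-box), TGANTCA (AP-1), TGACGTCA (CRE), the kappaB motif bound by NF-κB and the CArG box. Slc20a1 held an E-box (7.15% of 32851 promoter windows). Cpd held a kappaB motif (5.8%) that starts 122 bases before the start used for its window. Inafm2 held a CArG box (1.63%) that starts 75 bases before the start used for its window. The GENCODE M21 starts of Cpd (chr11:76847018) and Slc20a1 (chr2:129198764) lie inside the printed windows. Among the 7 genes no window held an AP-1 (7.81%) or CRE (1.79%) match, and no motif occurred in more than 1 of them.

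The 8 libraries held 17349682 to 34434615 expected counts (estimated by RSEM for every gene). The label check by the targeted gene showed Gstm1 at 230 and 377 CPM in control KD against 29.0 and 31.3 in GSTM1 KD in the basal state, and at 209 and 390.4 against 24.3 and 23.3 with TNF-α (CPM, counts scaled to a common library size with TMM). It was lower in each GSTM1 KD library than in each control KD library, while the control KD replicates lay far apart. Markers of other cells were checked as summed CPM. The 10 astrocyte markers summed to 3163 to 7385 in the control KD libraries and 6128 to 9128 in GSTM1 KD, and S100b was the only one called in either state (log2 fold change -1.44 in the basal state and -1.71 with TNF-α). The 8 microglial markers summed to at most 7.32, with P2ry12 at no more than 3 counts and none of the 3 tested called by edgeR. In the basal state they summed to 2.66 to 7.06 in control KD and to at most 2.23 in GSTM1 KD. They were thus lower in each GSTM1 KD library, the direction of the 10 genes. With TNF-α the ranges overlapped, at 2.10 to 7.32 against 1.78 to 3.51. Oligodendrocyte lineage markers summed to 174 to 223 in control KD and 144 to 154 in GSTM1 KD in the basal state. With TNF-α they summed to 175 to 223 against 148 to 169.7, so they too were lower in each GSTM1 KD library, in both states. Mog and Mag were at no more than 3 counts, and Olig2 was called lower in both states. The 6 fibroblast and meningeal markers ranged from 266 to 504 in control KD and from 193 to 345 in GSTM1 KD, with Col1a2 called lower in both states and Pdgfrb higher with TNF-α. Neuronal markers summed to 416 to 422 in control KD and 452 to 502 in GSTM1 KD in the basal state, and to 389.5 to 393 against 420.5 to 475 with TNF-α, with Snap25 at no more than 3 counts and none of the 4 tested called by edgeR. Choroid plexus markers summed to 0.508 to 0.593 CPM in control KD and 1.67 to 3.15 in GSTM1 KD in the basal state, and to 0.172 to 0.722 against 1.66 to 2.76 with TNF-α. Of these Folr1 was called higher in GSTM1 KD in both states, and Clic6 and Kcne2 were at no more than 3 counts. Both sums were higher in each GSTM1 KD library than in the control KD libraries of its state. Endothelial markers summed to 5.28 to 7.21 CPM in control KD and 4.31 to 4.33 in GSTM1 KD in the basal state, also lower in each GSTM1 KD library. With TNF-α they summed to 4.21 to 7.15 against 4.59 to 5.17. Ependymal markers summed to 115 to 173 in control KD and 139 to 151 in GSTM1 KD in the basal state. With TNF-α they summed to 102 to 118 against 131 to 142. No endothelial or ependymal marker tested was called by edgeR in either state. The single markers given here were named after their values were seen. The part of these cell types in the differences of the 10 genes was not tested. In bulk RNA, fewer cells of a type and less RNA per cell cannot be told apart.

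**Figure D1:**
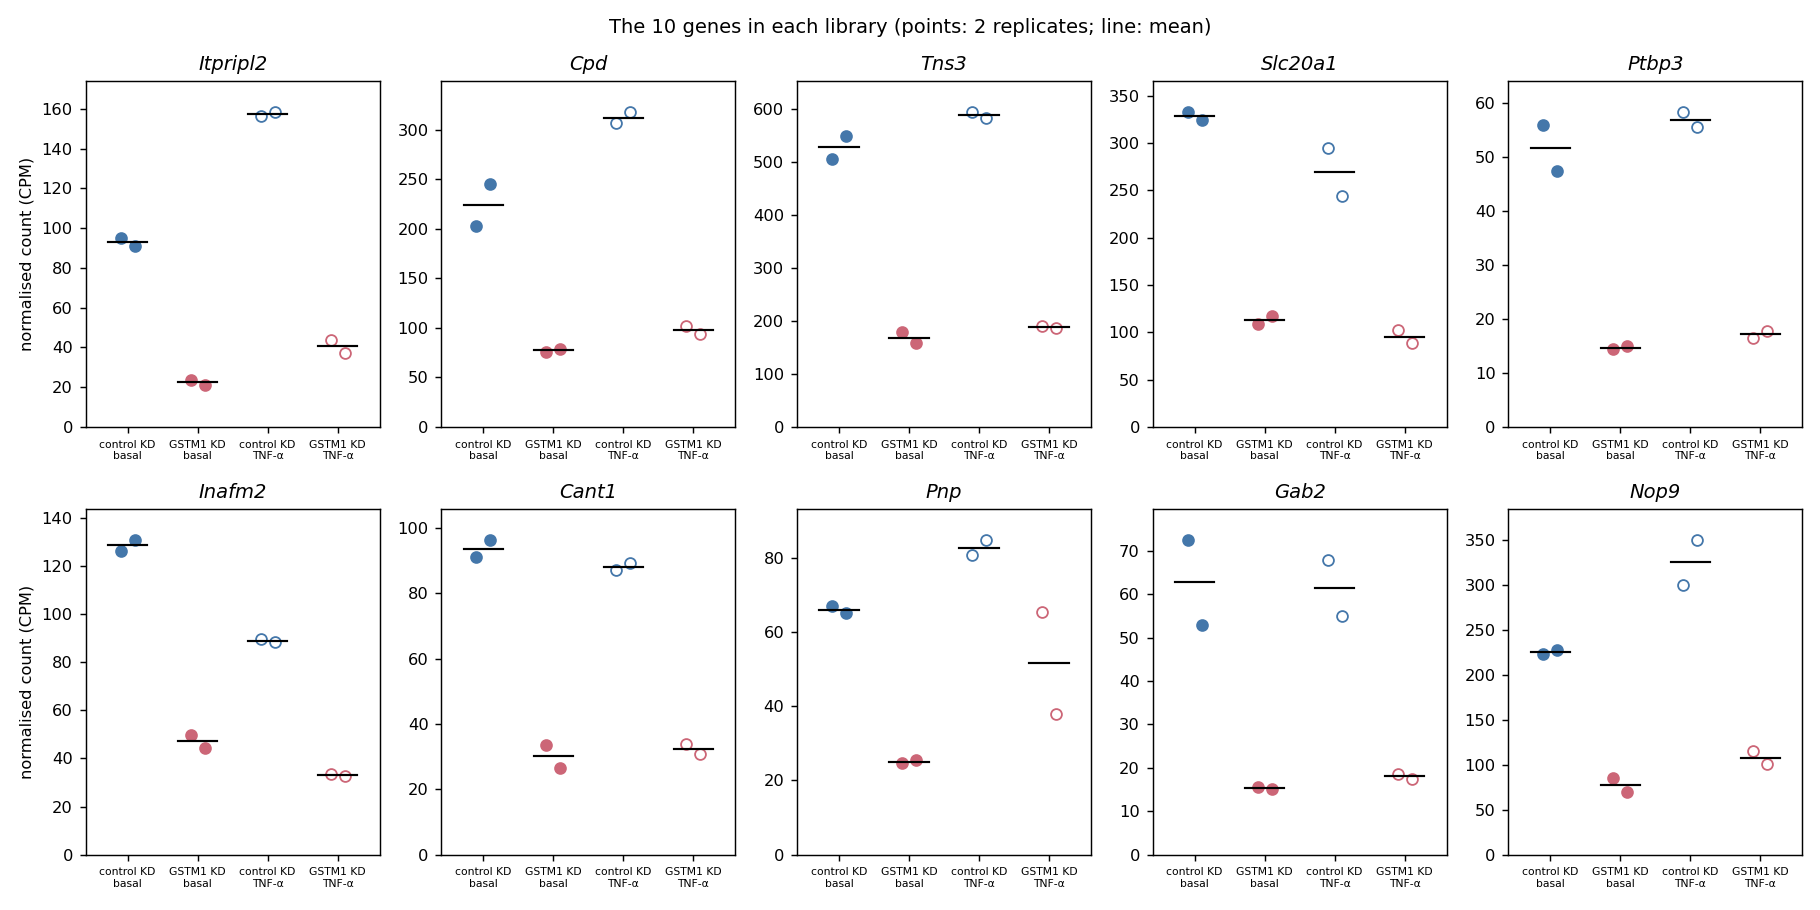
Normalised counts (CPM, linear axes from 0) of the 10 genes in each library, with 2 points per group and a line at their mean, control KD in blue, GSTM1 KD in red and TNF-α libraries open. In 9 genes all 4 GSTM1 KD libraries lie below all 4 control KD libraries, and in Pnp the GSTM1 KD library at 65.5 CPM with TNF-α lies level with control KD in the basal state.

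Among the membrane proteins, Itpripl2, a relative of the protein that binds the inositol trisphosphate receptor, was at 94.8 and 91.0 CPM in control KD and at 23.7 and 21.1 in GSTM1 KD in the basal state. With TNF-α it was at 156 and 158 against 43.9 and 37.2 CPM. The gene lies at chr7:118485111-118491975 on the minus strand, and GENCODE M21 gives it 1 transcript, so its counts could not be divided among isoforms. In GSTM1 KD it stood at 24.1% of control KD in the basal state and at 25.4% with TNF-α, which is 4.15 and 3.94 times lower (log2 fold change -2.05 with SE 0.114, and -1.98 with SE 0.118). Its relative Itpripl1 was at 2.40 to 7.53 CPM in all libraries and its log2 fold change was -1.16 in the basal state (SE 0.280, adjusted p = 0.0580 by edgeR) and -0.99 with TNF-α (SE 0.306, adjusted p = 0.0801).

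Cpd encodes carboxypeptidase D, which trims basic residues from the ends of proteins in the trans-Golgi network. It was at 203 and 246 CPM in control KD and at 76.0 and 78.3 in GSTM1 KD in the basal state, and at 307 and 317 against 102 and 93.6 with TNF-α. The groups did not overlap, and the GSTM1 KD level was 34.4% of control KD in the basal state and 30.8% with TNF-α (log2 fold change -1.54, SE 0.132, and -1.70, SE 0.105). Cpe, the carboxypeptidase of secretory granules, was at 834 to 1206 CPM in control KD and 1503 to 1899 in GSTM1 KD, with log2 fold changes of 0.71 (SE 0.206, adjusted p = 0.0818 by edgeR) and 0.74 (SE 0.211, adjusted p = 0.0684). Of the other metallocarboxypeptidases and prohormone-processing genes, 12 were tested in the basal state and 13 with TNF-α. The proprotein convertases Pcsk6 and Furin rose in GSTM1 KD in both states (Pcsk6 log2 fold change 0.69 and 0.70, Furin 0.57 and 0.58) and Cpa4, a carboxypeptidase, fell by 1.22 and 1.02, while Cpq, named after its values were seen, was called higher with TNF-α (0.85). The 1 lower call was 8.33% of the list in the basal state and 7.69% with TNF-α, against 5.62% and 8.92% of all genes tested. Higher calls were 2 of 12 and 3 of 13, where 4.6% and 7.26% of all genes were called higher. The median of the list was 0.22 in the basal state and 0.35 with TNF-α, against -0.0020 and -0.011 over all genes tested.

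Slc20a1 encodes PiT-1, a sodium-dependent phosphate importer. It was at 332 and 325 CPM in control KD and at 109 and 117 in GSTM1 KD in the basal state, and at 295 and 244 against 103 and 88.3 with TNF-α. GSTM1 KD was thus at 34.4% and 34.8% of control KD (log2 fold change -1.54, SE 0.111, and -1.52, SE 0.147). The second importer of the family, Slc20a2, was at 77.8 to 92.5 CPM in every library and was not called (log2 fold change 0.18, SE 0.101, adjusted p = 0.289 by edgeR in the basal state, and 0.08, SE 0.0926, adjusted p = 0.557 with TNF-α). In the phosphate transport list 0 of 4 genes tested were called in either state by edgeR, against 10.2% and 16.2% of all genes. The list medians were 0.22 and 0.15, against -0.0020 and -0.011 over all genes.

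Inafm2 encodes a short protein with an InaF motif and a membrane span. It was at 127 and 131 CPM in control KD and at 49.6 and 44.6 in GSTM1 KD in the basal state, and at 89.7 and 88.3 against 33.7 and 32.8 with TNF-α. Replicates lay close together, and the GSTM1 KD share of control KD was 36.6% and 36.7% (log2 fold change -1.45, SE 0.108, and -1.44, SE 0.0942). Its relative Inafm1 moved the other way, from 13.0 to 14.7 CPM in the control KD libraries to 22.9 to 26.0 in GSTM1 KD, and was called higher in both states (log2 fold change 0.75, SE 0.143, adjusted p = 0.0353, and 0.71, SE 0.139, adjusted p = 0.0301 by edgeR).

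Of the 2 adaptors, Tns3 encodes tensin 3, which links integrins to actin at adhesions. It was the gene with the most counts of the 10, at 506 and 550.3 CPM in basal control KD against 179 and 158 in basal GSTM1 KD, and at 594 and 584 against 191 and 186 with TNF-α. The level in GSTM1 KD was 31.8% and 31.5% of that in control KD (log2 fold change -1.65, SE 0.129, and -1.67, SE 0.105). Tns1 and Tns2, the other tensins with enough counts, had log2 fold changes between -0.09 and 0.51 and were not called (adjusted p from 0.351 to 0.818 by edgeR). In the list of 24 focal adhesion genes, 5 were called lower and Tln2, named after its values were seen, higher in the basal state, and 10 were called lower and Tln2 higher with TNF-α. The lower calls were 20.8% and 41.7% of the list, against 5.62% and 8.92% of all genes tested. The list medians were -0.23 and -0.33, against -0.0020 and -0.011 over all genes. Itga5, the fibronectin receptor subunit, fell by 1.70 and 1.81 on the log2 scale, Tgfb1i1, a paxillin relative, by 1.90 and 1.99, and Zyx, an actin-binding adhesion protein, by 0.93 and 1.08, while Bcar1 and Fermt2, named after their values were seen, made up the 5.

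Gab2 encodes a docking protein that recruits the phosphatase Shp2 and PI3K to activated receptors. In control KD the replicates differed, at 72.5 and 53.0 CPM in the basal state and 67.8 and 55.1 with TNF-α, while GSTM1 KD was at 15.6 and 15.0, and at 18.6 and 17.5. The groups did not overlap in either state, and GSTM1 KD was at 24.4% and 28.8% of control KD (log2 fold change -2.04, SE 0.182, and -1.79, SE 0.147). Gab1, the closest relative, was at 83.5 to 114 CPM in all libraries and was not called (log2 fold change -0.06, SE 0.106, adjusted p = 0.735, and 0.15, SE 0.0909, adjusted p = 0.297 by edgeR). Of 21 genes of Gab and Shp2 signalling tested, Shc1, Crk and Sos1 were called lower in the basal state (log2 fold change -0.73, -0.50 and -0.45), and with TNF-α these and Grb2, named after its value was seen, were (-0.81, -0.55, -0.39 and -0.44). These were 14.3% and 19.0% of the list, where 5.62% and 8.92% of all genes were called lower. Shc1, Grb2 and Crk are adaptors and Sos1 activates Ras. No gene of the list was called higher, and the list medians were -0.13 and -0.22.

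The RNA-binding proteins were Ptbp3 and Nop9. Ptbp3, a polypyrimidine tract-binding regulator of splicing, was at 56.1 and 47.5 CPM in control KD and at 14.4 and 15.0 in GSTM1 KD in the basal state, and at 58.3 and 55.7 against 16.6 and 17.9 with TNF-α. It had the lowest TPM of the 10 genes in control KD in both states, yet each library held at least 299 counts of it. GSTM1 KD was at 28.3% and 29.7% of control KD (log2 fold change -1.82, SE 0.139, and -1.75, SE 0.113). Its relatives were called in opposite directions in both states by edgeR. Ptbp1, the widely expressed member, was lower (log2 fold change -0.52, SE 0.111, adjusted p = 0.0437, and -0.60, SE 0.0985, adjusted p = 0.0208), and Ptbp2, the member known from neurons, was higher (1.13, SE 0.228, adjusted p = 0.0393, and 1.09, SE 0.198, adjusted p = 0.0258). Ptbp2 was at 33.4 to 55.4 CPM in the control KD libraries and at 91.8 to 101 in GSTM1 KD. These 2 were the calls among 22 splicing regulators in the basal state, and Mbnl2 (0.47), named after its value was seen, joined them with TNF-α. The lower call, Ptbp1, was 4.55% of the list in each state, near or below the 5.62% and 8.92% over all genes. Over all genes 4.6% and 7.26% were called higher.

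Nop9 encodes a nucleolar RNA-binding protein needed to make the small ribosomal subunit. It was at 223 and 227 CPM in control KD and at 85.0 and 69.8 in GSTM1 KD in the basal state, and at 300.2 and 349.6 against 115 and 101 with TNF-α. GSTM1 KD was at 34.4% and 32.6% of control KD (log2 fold change -1.54, SE 0.133, and -1.62, SE 0.130). Of the exonic bases of Nop9, 29.9% lie under exons of Cideb on the opposite strand, and Cideb itself had 17.8 to 50.9 expected counts per library, against 1395 or more for Nop9. Of 29 genes of small subunit biogenesis, Imp4 and the kinase Riok1 were called lower in the basal state (log2 fold change -0.83 and -0.80), which is 6.90% of the list and near the 5.62% over all genes. With TNF-α 6 were called lower (20.7%, against 8.92% over all genes), Riok1 (-0.88) and Imp4 (-0.86) among them. No gene of this list was called higher in either state, and the list medians were -0.37 and -0.38.

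The last pair acts on nucleotides. Cant1, the calcium-activated nucleotidase of the Golgi that is needed for glycosaminoglycan synthesis, was at 91.1 and 96.3 CPM in control KD and at 33.7 and 26.5 in GSTM1 KD in the basal state, and at 87.1 and 89.3 against 33.9 and 31.0 with TNF-α. GSTM1 KD was at 32.2% and 36.2% of control KD (log2 fold change -1.64, SE 0.144, and -1.47, SE 0.102). Entpd4, Entpd5 and Entpd6, other nucleotidases of the secretory pathway, had log2 fold changes of 0.12 to 0.64 and were not called (adjusted p from 0.0526 to 0.472 by edgeR). In the list of 19 Golgi nucleotidases and glycosaminoglycan synthesis genes, Chst11, Slc35d1 and, named after its value was seen, Xylt1 were called lower in the basal state and B3gat3 was called higher. Chst11, a chondroitin sulfotransferase, had log2 fold changes of -1.19 in the basal state and -1.05 with TNF-α, Slc35d1, a nucleotide sugar transporter, of -1.19 and -1.09, and B3gat3, which completes the linker of glycosaminoglycan chains, of 1.11 and 1.31. With TNF-α 6 were called lower and B3gat3 higher. The lower calls were 15.8% of the list in the basal state and 31.6% with TNF-α (over all genes 5.62% and 8.92%), and the list medians were 0.14 and 0.12.

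Pnp encodes purine nucleoside phosphorylase, which splits inosine and guanosine for salvage or breakdown. At the basal level it was at 66.9 and 65.1 CPM in control KD and at 24.7 and 25.4 in GSTM1 KD, which is 37.9% (log2 fold change -1.40, SE 0.105). With TNF-α it was at 80.7 and 84.7 in control KD and at 65.5 and 38.0 in GSTM1 KD. The 2 GSTM1 KD replicates differed more with TNF-α than those of any other gene of the 10, and the log2 fold change of -0.70 (SE 0.251, 61.6% of control KD) became -1.14 without GSTM1 KD replicate 1 and -0.36 without GSTM1 KD replicate 2. Of the exonic bases of Pnp, 18.0% overlap a gene model on the same strand, Gm49342, which was not analysed here, and the near-identical copy Pnp2 had at most 33 counts in any library. The log2 fold change of Pnp2 was -0.80 in the basal state (SE 0.503, adjusted p = 0.325 by edgeR), and it was not tested with TNF-α. Among the 17 purine salvage and catabolism genes tested in the basal state, Mtap, which salvages methylthioadenosine, fell (log2 fold change -1.15) and Adk, adenosine kinase, rose (0.78). With TNF-α 16 were tested, Mtap (-1.11) and, named after their values were seen, Ampd2, Ampd3, Impdh1 and Impdh2 were called lower, and Adk (0.72) was called higher. The share called lower was 5.88% in the basal state, near the 5.62% over all genes, and 31.2% with TNF-α, against 8.92%. Adk was the 1 higher call of the list in each state, where 4.6% and 7.26% of all genes were called higher. The list medians were -0.45 and -0.40.

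**Figure D2:**
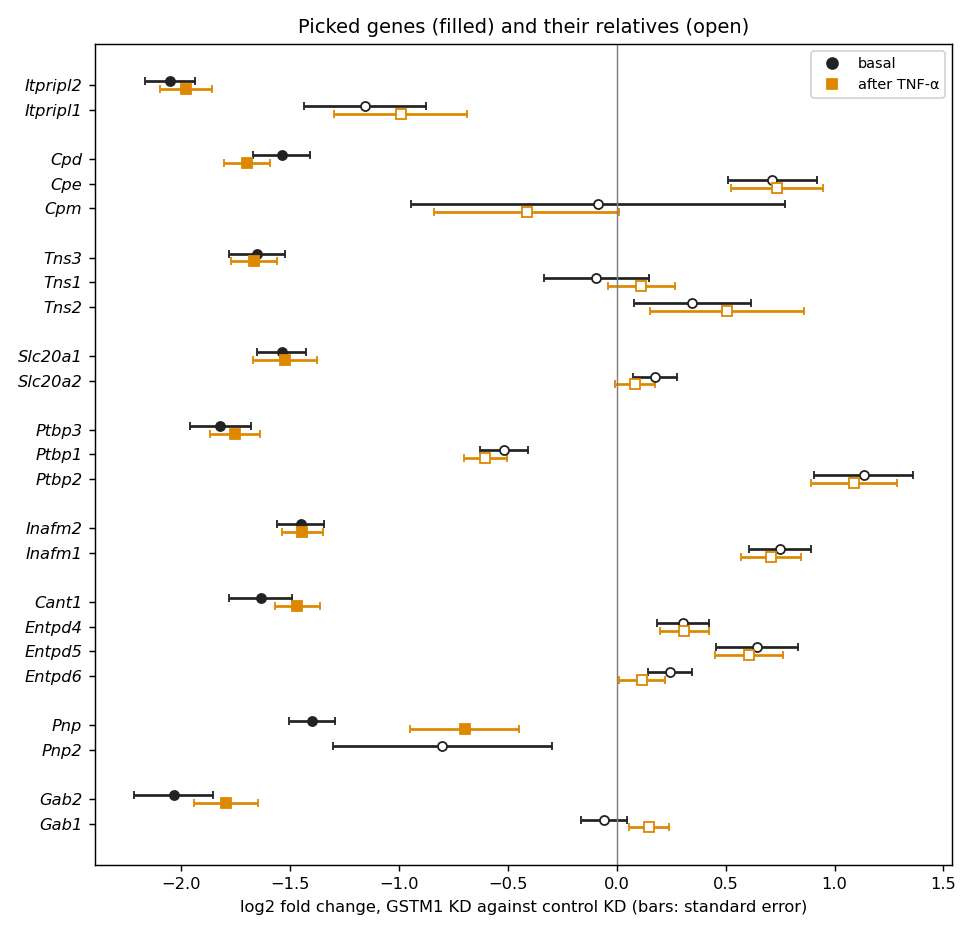
Log2 fold change of GSTM1 KD against control KD (x axis, edgeR, bars are standard errors) for 9 of the picked genes (filled) and the relatives with enough counts (open), in the basal state (circles) and with TNF-α (squares). The picked genes lie left of 0 by selection, while among the relatives Itpripl1 and Ptbp1 lie left of 0, Cpe, Inafm1 and Ptbp2 lie right of 0, and Slc20a2 and Gab1 lie near 0. The values of Entpd4, Entpd5, Entpd6 and Tns2 are above 0 in both states. Those of Cpm and of Pnp2 (tested in the basal state only) are below 0.

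Of 18 relatives in the list, Itprip was not found by its symbol, 14 had enough counts in the basal state and 13 with TNF-α. Inafm1 and Ptbp2 were called higher and Ptbp1 lower in both states, where 4.6% and 7.26% of all genes were called higher and 5.62% and 8.92% lower. The median log2 fold changes of the relatives were 0.21 and 0.15. Nop9 has no relative in the list. The members of all the lists together, with the 10 genes left out, gave 16 lower (10.7%) and 7 higher calls among 150 genes tested in the basal state and 33 lower (22.0%) and 9 higher with TNF-α. Over all genes, edgeR called 838 of 14899 lower (5.62%) and 686 higher (4.6%) in the basal state, which is 10.2% in either direction. With TNF-α it called 1301 of 14593 lower (8.92%) and 1059 higher (7.26%), which is 16.2% in either direction. The number of calls changed with the library left out. Without 1 library of a knockdown, the spread is estimated from the pair of the other knockdown alone. The control KD pairs were the more spread ones. Their chi-square per gene between replicates reached 61.3 (basal) and 40.6 (TNF-α), while the GSTM1 KD pairs stood at 15.1 and 17.25. In the basal state 1 gene was called in either direction without GSTM1 KD replicate 1 and 3 without replicate 2 (2849 and 2077 at an unadjusted p under 0.05, by edgeR), and with TNF-α 0 and 94 (3273 and 2610). Of the 19 list genes and relatives called in both states that the naming rule picked, 0 kept the call in the basal state without either GSTM1 KD replicate, and with TNF-α 0 did without replicate 1 and 2 without replicate 2. Without control KD replicate 2, 5256 genes were called in the basal state and 5028 with TNF-α, and without control KD replicate 1, 2185 and 2703. All 19 kept the call without either control KD library.

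**Figure D3:**
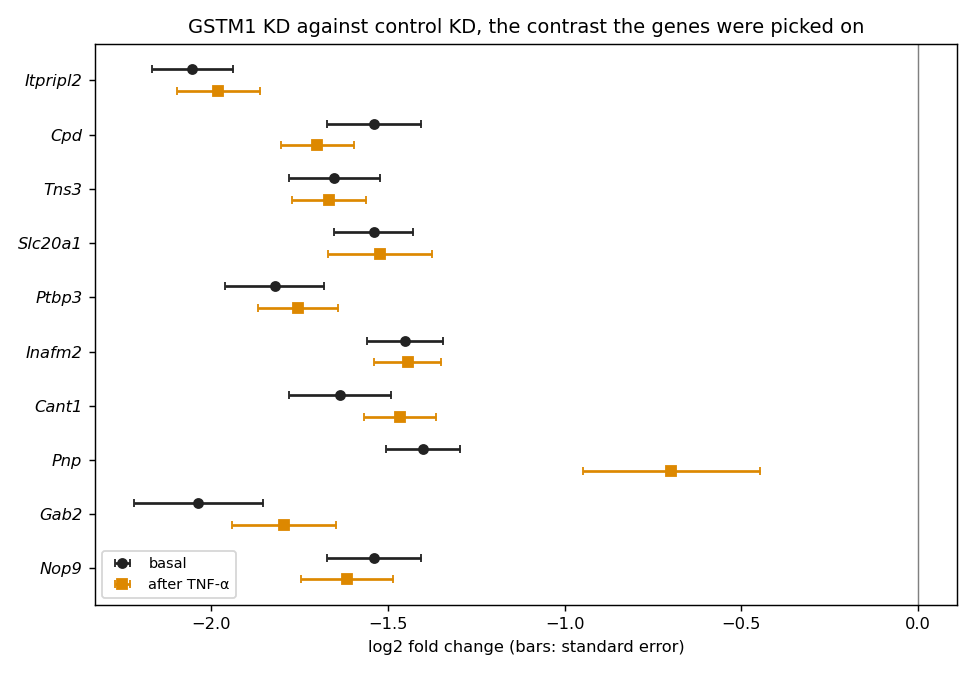
Log2 fold change of GSTM1 KD against control KD for the 10 genes (x axis, edgeR, bars are standard errors), in the basal state (circles) and with TNF-α (squares), the contrast on which they were picked. The 2 values lie close together in 9 genes, and in Pnp they are -1.40 and -0.70.

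The median log2 fold change of the 10 genes was -1.59 in the basal state (range -2.05 to -1.40) and -1.64 with TNF-α (range -1.98 to -0.70). In all 20 pairs of a gene and a state the replicates of GSTM1 KD lay below those of control KD in CPM, as 31.2% of all genes tested did in the basal state and 32.0% with TNF-α, and nothing is read from this count because that contrast chose the genes. Among the 14379 genes tested in both states, 714 were called lower in both. Ranked by the weaker of the 2 log2 fold changes, 9 of the 10 genes were between rank 20 (Itpripl2) and rank 120 (Inafm2), and Pnp was at rank 993. The difference of the knockdown effect between the states (with TNF-α minus basal, from all 8 libraries) was 0.73 for Pnp (SE 0.310) and lay between -0.13 (Cpd, SE 0.156) and 0.27 (Gab2, SE 0.241) in the other genes. It was 0.27 for Pnp without GSTM1 KD TNF-α replicate 1 and 1.06 without replicate 2. That of Gab2 was 0.021 without control KD basal replicate 1 and 0.46 without replicate 2, and that of Cpd -0.0050 and -0.29. For Cant1 it was 0.38 without GSTM1 KD basal replicate 1 and 0.026 without replicate 2.

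Levels between genes were compared in TPM, which allows for length. In control KD in the basal state the order was Slc20a1 (197 ± 3.33 TPM, SD, n = 2), Tns3 (158 ± 19.1), Nop9 (137 ± 12.5), Pnp (87.4 ± 1.42), Inafm2 (78.2 ± 2.41), Cant1 (58.8 ± 3.15), Cpd (50.0 ± 6.81), Itpripl2 (24.0 ± 0.580), Gab2 (20.1 ± 3.08) and Ptbp3 (15.4 ± 0.382). The replicates of Tns3 and Nop9 overlapped, and those of the other neighbours in the order did not. In GSTM1 KD in the basal state Slc20a1 was at 76.0 ± 4.17 TPM and Ptbp3 at 4.71 ± 1.03, and none of the 10 genes was near the floor of 3 counts.

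A shift between isoforms of different length can change a gene's effective length, in which its transcripts are weighted by their estimated abundance. Effective length is not transcript length itself. The 1 transcript of Itpripl2 has 6865 bases, and its effective length was 6641 and 6629 in basal control KD. The mean effective length in GSTM1 KD differed from control KD by -7.20% (Slc20a1 in the basal state) to 5.55% (Tns3 in the basal state), and the replicates did not overlap in 2 of the 10 genes in the basal state and 3 with TNF-α, against 26.3% and 29.5% of all genes tested. These were Slc20a1 and Cant1 in the basal state and Tns3, Ptbp3 and Nop9 with TNF-α. Slc20a1 was at 2855 and 2875 bases in control KD and at 2671 and 2646 in GSTM1 KD in the basal state. With TNF-α its replicates overlapped (2978 and 2894 against 2908 and 2781). The log2 ratio of the group means differed by at most 0.168 between TPM and CPM, so the genes were lower by both measures.

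The response to TNF-α took no part in the choice of the genes, and it was tested with edgeR over all 15332 genes with enough counts. It shares libraries with the knockdown contrasts, so the 2 are set side by side only. A pick for a strong, consistent difference can favour genes with little spread between replicates, and the TNF-α test uses the same spread. The shares over all genes given below are therefore not a matched background for the 10 genes. In control KD 2 of the 10 genes were called, against 2.63% of all genes, and in GSTM1 KD the same 2, against 2.65%. Itpripl2 rose from 94.8 and 91.0 to 156 and 158 CPM in control KD (log2 fold change 0.76, SE 0.103, adjusted p = 0.0125) and from 23.7 and 21.1 to 43.9 and 37.2 CPM in GSTM1 KD (0.86, SE 0.108, adjusted p = 0.00819). Inafm2 fell by 0.53 on the log2 scale in control KD (SE 0.0824, adjusted p = 0.0204) and by 0.50 in GSTM1 KD (SE 0.0848, adjusted p = 0.0276). Neither gene's TNF-α libraries overlapped its basal libraries. With the 4 control KD libraries alone both calls in control KD were lost (Itpripl2 adjusted p = 0.0812, Inafm2 adjusted p = 0.171, edgeR), and with the 4 GSTM1 KD libraries alone both calls in GSTM1 KD were kept. The 2 calls were also lost in part when 1 library was left out. Itpripl2 kept its call in control KD without either replicate 1, and it had an adjusted p of 0.0674 without the basal and 0.0627 without the TNF-α control KD replicate 2. In GSTM1 KD it had an adjusted p of 0.0664, 0.111 and 0.0660 without basal replicate 1, basal replicate 2 and TNF-α replicate 1. Inafm2 lost its call without any 1 of the 4 libraries of a knockdown, with an adjusted p from 0.0558 to 0.129 in control KD and from 0.110 to 0.264 in GSTM1 KD.

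**Figure D4:**
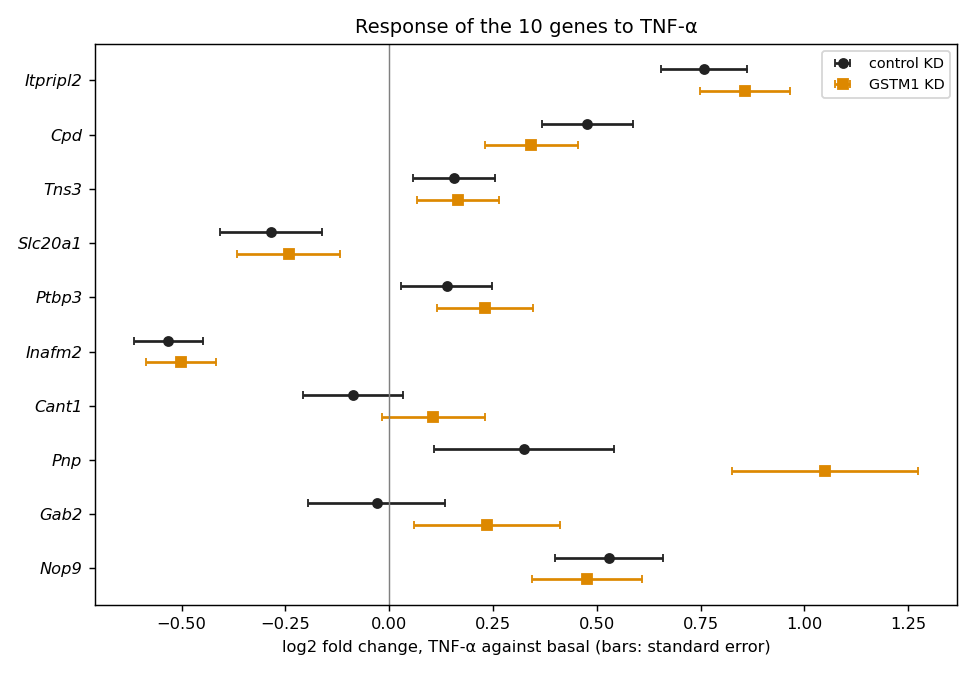
Log2 fold change of TNF-α against basal for the 10 genes (x axis, edgeR, bars are standard errors) in control KD (circles) and GSTM1 KD (squares). Itpripl2 lies at 0.76 and 0.86, Inafm2 at -0.53 and -0.50, and Pnp at 0.32 and 1.05.

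The other 8 genes did not pass the threshold in either knockdown by itself in the edgeR fit of all 8 libraries. In control KD Cpd had a log2 fold change of 0.48 (SE 0.110, adjusted p = 0.0823) and Nop9 of 0.53 (SE 0.130, adjusted p = 0.0992). In GSTM1 KD Cpd was at 0.34 (SE 0.111, adjusted p = 0.256), Nop9 at 0.48 (SE 0.131, adjusted p = 0.162) and Pnp at 1.05 (SE 0.224, adjusted p = 0.0670), all by edgeR. With DESeq2 the adjusted p was 0.0162 for Cpd and 0.0136 for Nop9 in control KD and 0.000729 for Pnp in GSTM1 KD, and these 3 also passed with the replicate number as a block. Nop9 passed in both knockdowns with effective lengths as offsets (0.57, adjusted p = 0.0494, and 0.65, adjusted p = 0.0327, by edgeR). The response of Pnp in GSTM1 KD was 0.60 without TNF-α replicate 1 and 1.39 without TNF-α replicate 2. The TNF-α and basal libraries did not overlap in 8 of the 10 genes in control KD (34.5% of all genes tested) and 9 in GSTM1 KD (44.5%). For Cpd, Tns3, Pnp and Nop9 both TNF-α libraries lay above both basal libraries in each knockdown, for Slc20a1 both lay below, and for Cant1 both lay below in control KD only. For Ptbp3 and Gab2 both TNF-α libraries lay above both basal libraries in GSTM1 KD, and the libraries overlapped in control KD. Slc20a1 had log2 fold changes of -0.29 and -0.24, Tns3 of 0.16 and 0.17, Ptbp3 of 0.14 and 0.23, Gab2 of -0.03 and 0.24 and Cant1 of -0.09 and 0.11.

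When the 2 responses were averaged in 1 contrast, chosen after the data were seen, 5 of the 10 genes passed, against 6.77% of all genes. That share is no matched background for picked genes, as said above. Itpripl2 (log2 fold change 0.81, SE 0.0749, adjusted p = 0.00108), Pnp (0.69, SE 0.156, adjusted p = 0.0445), Nop9 (0.50, SE 0.0925, adjusted p = 0.0199) and Cpd (0.41, SE 0.0783, adjusted p = 0.0232) rose, and Inafm2 fell by 0.52 (SE 0.0591, adjusted p = 0.00264), by edgeR. Itpripl2 and Inafm2 kept this call whichever library was left out. Cpd and Pnp each lost it without any of 6 of the 8 libraries, with an adjusted p up to 0.113 for Cpd and 0.169 for Pnp, and Nop9 without 3, up to 0.0927. Cpd is the gene whose upstream window, printed above, held a kappaB match, and Inafm2 the one with a CArG box. The windows of Itpripl2, Nop9 and Pnp held none of the 5 motifs. Any part of these motifs in the TNF-α responses was not tested.

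Across the 8 libraries the 10 genes followed a shared pattern, which the choice of the genes by their knockdown difference largely fixes. As a description over 8 libraries that share 2 knockdowns, Pearson's r between 2 of the genes ran from 0.58 to 0.99 over the 45 pairs (log2 CPM). Tns3 was the gene closest to the mean pattern of the 10 (r = 0.997) and Pnp the farthest (0.86), followed by Inafm2 (0.89), the gene that TNF-α lowered. Among 9965 genes with a mean of at least 10 CPM, the 5 other genes closest to the mean pattern were Ccdc6, Mtpn, Ube2v1, Clint1 and Piezo1, each with r above 0.997. Mtpn, the one with the highest CPM of them, was at 826 ± 9.50 CPM in control KD and 366 ± 24.1 in GSTM1 KD in the basal state (SD, n = 2). With TNF-α it was at 895 ± 23.9 against 411 ± 27.8.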

How the data were processed

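RNA was sequenced in 8 libraries, and 10 genes were examined in all of them. The libraries were prepared with a directional kit, and the sources used here do not say whether reads were counted by strand. The authors mapped reads to GRCm38 with STAR (version 2.5.4b) and quantified them with RSEM (version 1.3.0), per the submitters' processing notes, and deposited for each of 54146 genes the expected count (an estimate that need not be whole), the TPM value and the effective length in bases. The authors compared groups with DESeq2. Of the gene identifiers, 52480 matched GENCODE M21 with their version, all 10 genes among them.

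Here expected counts were rounded to whole numbers, normalised by TMM and filtered with filterByExpr in edgeR (version 4.0.16, R version 4.3.3). Groups were compared by its quasi-likelihood test, and p-values were adjusted by Benjamini-Hochberg over all genes tested, at 0.05. The knockdown contrast used the 4 libraries of a state, and TNF-α responses all 8. Fold changes of the 10 genes between knockdowns carry no test. No expected count was below 299 for a picked gene. Counting error alone sets a floor of 3 counts.

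The members, lists, motifs and alternatives were chosen with earlier results of these data known. Genes named are the 10, Gstm1, the relatives, up to 3 genes per list called in the same direction in both states with the smallest p-values, and the 5 genes most like the mean pattern. Other names are marked as chosen after their values were seen. Alternatives were DESeq2 (version 1.42.0), its size factors, library size only, no filter, a filter of 10 counts in each library, a replicate block, effective lengths as offsets, other libraries in the fit, and leaving out each library. Figures used matplotlib (version 3.10.9).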

Additional observations from a re-analysis of the deposited data

How the results depend on the processing

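The direction of the knockdown difference held for all 10 genes under every alternative run. The genes were picked on this difference in these same libraries, so that outcome was largely fixed beforehand and nothing is read from it. When 1 library was left out, the median log2 fold change of the 10 genes ranged from -1.72 to -1.57 in the basal state. With TNF-α it ranged from -1.68 to -1.58. The counts of calls moved more. With DESeq2, 2494 genes were called in the basal state, 738 for TNF-α in control KD and 629 in GSTM1 KD. With no filter the counts were 3957 in the basal state, 4540 with TNF-α, 1255 and 1050 for the TNF-α responses of control KD and GSTM1 KD, and 1987 for their mean. With the replicate block they were 4712, 4302, 988, 808 and 1904. With all 8 libraries in the fit the basal count was 2762, and with 4 libraries the TNF-α counts were 72 in control KD and 691 in GSTM1 KD. With 1 library left out the counts ran from 1 to 5256 in the basal state, from 0 to 5028 with TNF-α, from 180 to 313 and from 74 to 255 for the TNF-α responses, and from 513 to 1122 for their mean. The lowest counts for the knockdown in each state came without a GSTM1 KD library. There the lone replicate is assumed to vary like the control KD pair, the more spread of the pairs. The cause of the low counts was not tested.

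Of the 10 genes, 4 were called for TNF-α in control KD by DESeq2, with no filter and with the replicate block, where Cpd (log2 fold change 0.48, adjusted p = 0.0318 by edgeR with the block) and Nop9 (0.53, adjusted p = 0.0475) joined, while 738, 1255 and 988 of all genes were called in place of 403, and 0 by edgeR with the 4 control KD libraries alone. In GSTM1 KD 4 were called with no filter, Pnp and Nop9 (0.46, adjusted p = 0.0156 by edgeR) joining, while 1050 of all genes were called in place of 406. For the mean response 6 were called with no filter, Slc20a1 (-0.28, adjusted p = 0.0337 by edgeR) joining. There 1987 of all genes were called in place of 1038. Nop9 also passed with effective lengths as offsets, with responses of 0.57 (control KD, adjusted p = 0.0494) and 0.65 (GSTM1 KD, adjusted p = 0.0327). Pnp passed in GSTM1 KD also with DESeq2 (1.04, adjusted p = 0.000729), with the replicate block (1.03, adjusted p = 0.0340) and without GSTM1 KD TNF-α replicate 2 (1.39, adjusted p = 0.00212), while with 1 library left out its response ranged from 0.60 to 1.39 and its adjusted p reached 0.404. With 1 library left out 0 to 1 genes were called in control KD, 0 to 2 in GSTM1 KD and 2 to 4 for the mean. Directions turned only in small, uncalled values. With 1 library left out the response of Gab2 in control KD ranged from -0.23 to 0.21, that of Cant1 in GSTM1 KD from -0.053 to 0.29 and the mean response of Cant1 from -0.07 to 0.11. Gab2 was at 0.21 without control KD basal replicate 1 and 0.13 without control KD TNF-α replicate 2, and Cant1 in GSTM1 KD at -0.053 without GSTM1 KD basal replicate 2. The mean response of Cant1 became -0.029 with library size only, -0.010 with no filter, -0.011 with effective lengths as offsets, -0.011 without control KD basal replicate 1, -0.066 without GSTM1 KD basal replicate 2 and -0.024 without GSTM1 KD TNF-α replicate 1.

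The 19 list genes and relatives that the naming rule picked as called kept their direction under all alternatives. They lost their call in 9 of 152 values in the basal state and 4 of 152 with TNF-α, and with 1 library left out in 38 of 76 and 36 of 76. The labels do not say what a replicate number marks. The deviations of same-numbered libraries correlated at 0.69 between the basal and TNF-α groups of control KD, and at 0.46 between those of GSTM1 KD. Between groups of different knockdowns the correlation was 0.22 to 0.34. The main fit treated all libraries as unpaired. Whether the basal and TNF-α libraries of a knockdown share cultures was not tested, so the states may not be independent repeats. Depth was no limit for the 10 genes.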
